A study of Mus musculus with 17 samples.

Results

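RNA of mature oocytes from 48-week-old mice was compared with that of oocytes from 4-week-old mice, with rapamycin-treated and untreated old females pooled, to describe what old oocytes shared whatever the treatment. The old side held 4 libraries, namely aged 1 and aged 2 from untreated females and rapamycin 2 and rapamycin 3 from females that had received intraperitoneal rapamycin (2 mg/kg) over 40 weeks, starting at week 8. The young side held young 1 and young 2. These 6 libraries were taken out of 7 oocyte libraries and 17 libraries in all, and the other 10 came from the hippocampus of female offspring. Those offspring were 40 to 44 weeks old, and their mothers were young, aged untreated or aged rapamycin-treated. All mice were wild-type CD1, an outbred strain, and each library pooled about 10 oocytes at metaphase of the second meiotic division (M2) after cumulus cells had been removed with hyaluronidase. Ovulation was induced with pregnant mare serum gonadotropin and, 46 to 48 h later, human chorionic gonadotrophin, at 5 IU of each for 4-week and 10 IU of each for 48-week females, so age and hormone dose cannot be told apart.

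The libraries were chosen by their labels, except that rapamycin 1 was selected for leaving out on its own measured expression, with these results known. In rapamycin 1 the growth factor gene Gdf9, a marker of oocytes, had 308 CPM (counts scaled to a common library size) against 5090 to 9262 CPM in the 6 libraries used. H1foo, the oocyte linker histone, stood at 526 CPM there against 10065 to 13774 CPM, and Mos at 13.2 CPM against 1108 to 1819 CPM. Tcl1, also an oocyte gene, went the other way, with 27035 CPM in rapamycin 1 against 7581 to 11158 CPM. Across genes, the log2 CPM of rapamycin 1 correlated with the others at r = 0.763 to 0.814, against 0.887 to 0.979 among the 6. Where putting it back ended the call of a gene described below, this is said beside the gene, and none of the 68 called genes that the naming rule picked changed direction with it.

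A mouse oocyte stops transcribing before it matures, so a mature oocyte lives on messenger RNA made and stored while it grew. During maturation many of these messages lose their poly(A) tail and decay, while others gain a longer tail and are translated. The libraries were primed on poly(A) tails, so the amount of a message and the share of its copies with a tail cannot be told apart here, and with pooled cells neither can fewer cells with a transcript and less of it per cell.

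The 6 libraries held 3912163 to 8334873 counts and 8693 to 10350 genes with at least 10 counts, and a floor of 3 counts stood at 0.360 to 0.767 CPM. Oocyte identity transcripts summed to 31923 to 38888 CPM in them and to 10873 CPM in rapamycin 1. The 34 cumulus and granulosa markers summed to 74.4 to 94.4 CPM in the old and 121 to 134 CPM in the young libraries, led by the aromatase gene Cyp19a1, with 11 to 22 of them at 0 in a library. Theca, stroma and endothelial markers summed to 151 to 223 CPM in old and 149 to 163 CPM in young libraries, led by Pecam1 (57.2 to 134 CPM over the 6). Immune and blood markers summed to 69.0 to 227 CPM in old and 175 to 205 CPM in young libraries. Most of that sum was the 1 gene Ms4a1 (37.4 to 192 CPM over the 6), with 16 to 24 of the 31 markers at 0 in a library. The cumulus sums did not overlap between the sides, and their part in the results was not tested. The first principal component, with 50.3% of the variance, placed young 1 and 2 at 52.1 and 48.6. On it aged 1 and 2 stood at -57.5 and -27.3, and rapamycin 2 and 3 at -2.41 and -13.6. The component thus also set the arms apart, with the rapamycin libraries nearer the young ones.

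Of 10220 genes tested, 400 (3.91%) differed between old and young oocytes in edgeR's quasi-likelihood test at an adjusted p under 0.05, of which 183 (1.79%) were higher and 217 (2.12%) lower in old oocytes. All 400 had every old library on one side of both young ones, which was true of 16.4% of all genes tested in the upward and 17.2% in the downward direction. The calls rest on these same libraries, so this separation largely follows from the test and is no added support. Fitted changes of over 16-fold were found for 45 of the higher and 44 of the lower genes, and for 117 of all genes tested. For genes at 0 on one side the fitted value depends on a small prior count and is not a size. Pramef6, for instance, had a fitted value of 6.80 log2 units but a bound of at least 10.9-fold. The median fitted size was 2.32 and 2.18 log2 units, against 0.45 over all genes tested. Passing the threshold favours large changes, so called genes exceed that median by selection. The 183 genes took 0.637% to 0.701% of counts in young and 2.05% to 2.15% in old libraries. The 217 genes took 3.20% to 3.44% in young and 1.15% to 1.53% in old libraries. Both sets were picked by the test in these libraries, so the directions of these shares follow from that choice. With rapamycin 1 put back, 65 genes were called (30 higher, 35 lower), all among the 400. The count was 71 without young 1, 64 without young 2, 247 without aged 2 and 699 without rapamycin 2. At an unadjusted p under 0.05 there were 2082 genes, with 511 expected by chance.

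**Figure D1:**
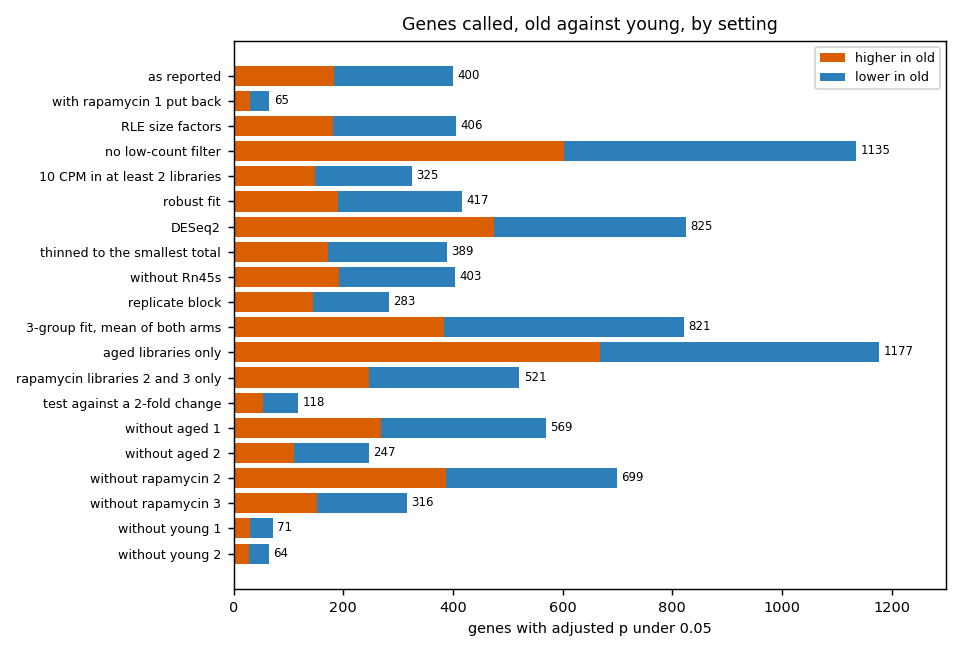
Number of genes with an adjusted p under 0.05 (x axis) for old against young oocytes as reported and under each of 19 other settings (y axis), with bars split into genes higher and lower in old oocytes. The count was 400 as reported and ran from 64 without young 2 to 1177 with the aged libraries only.

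The untreated and treated arms of the old side lay on the same side of the young libraries for each of the 400 genes, and 367 changed at least 2-fold in both arms. Both arms are measured against the same 2 young libraries, so their likeness is not independent. The median distance between rapamycin and aged libraries was 0.39 log2 units for the higher genes, 0.37 for the lower ones and 0.43 for all genes tested. The test counts any distance between the arms as spread, which favours genes whose arms lie close, so nothing is read from that likeness. For 101 of the 400 genes (25.3%) the 95% interval of the rapamycin minus aged difference lay within 1 log2 unit of 0, close to the 25.9% of all genes tested. For the other called genes the data leave room for a difference of 2-fold or more between the arms.

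**Figure D2:**
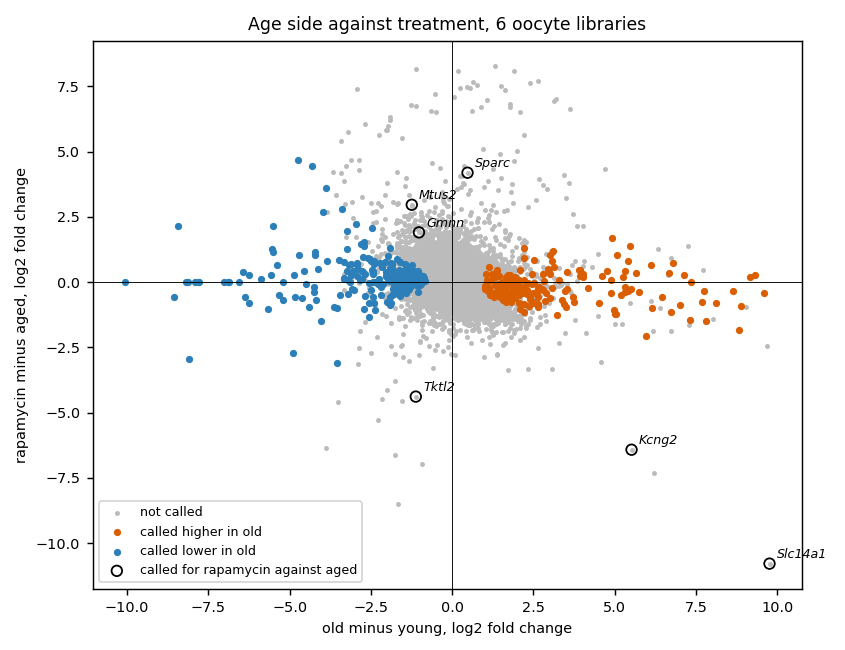
Fitted log2 fold change of old minus young (x axis) against rapamycin minus aged (y axis), 1 point per gene, over 4 old and 2 young libraries, with called genes coloured and the 6 genes called for rapamycin against aged ringed and named. None of the 400 coloured genes is ringed, but with 6 ringed genes and 3.91% of all genes coloured, nothing is read from this. Fitted values of genes at 0 in a group depend on a small prior count and are not sizes.

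Among genes higher in old oocytes, Pnpla3 had the widest gap between the nearest old and young libraries. This gene encodes a lipase and acyltransferase of lipid droplets. Its level was 1.35 and 1.90 CPM in young 1 and 2, 1551 and 1439 CPM in aged 1 and 2, and 994 and 1266 CPM in rapamycin 2 and 3. The old side averaged 1313 ± 242 CPM (SD, n = 4) and the young side 1.62 ± 0.385 CPM (SD, n = 2). On the log2 scale the fitted difference was 9.59 ± 0.38 (SE), with an edgeR adjusted p = 9.82e-07. The left-out library rapamycin 1 stood at 475 CPM, far above both young libraries. Pnpla3 lies on chromosome 15 from 84167837 to 84187236 of GRCm38 and is protein-coding, and 6.78% of its exon bases are shared with another gene.

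The 120 bases upstream of the RefSeq start of Pnpla3 are shown because it had the widest gap between the sides. In both sequences here, capitals mark matches on either strand to the motifs searched: the TATA box TATAAA, the GC box GGGCGG, the E-box CACGTG, the cAMP response element TGACGTCA, and the homeodomain core TAATTA or, with another last base, TAATTG. None of them contains another. Pnpla3 (GRCm38.p6, chr15:84167696-84167815, plus strand) holds GGGCGG and TGACGTCA, which 26.5% and 1.24% of 32851 windows of the same length in the RefSeq table also hold. Arid5b (chr10:68278727-68278846, minus strand), the gene of highest young level among the 12 lower genes of widest gap, holds TATAAA on the opposite strand, as do 6.34% of windows. The Arid5b window is upstream of a listed start but lies inside the gene body, which RefSeq places at 68092523 to 68279355. It also overlaps the end of the GENCODE gene at 68278740.
Pnpla3: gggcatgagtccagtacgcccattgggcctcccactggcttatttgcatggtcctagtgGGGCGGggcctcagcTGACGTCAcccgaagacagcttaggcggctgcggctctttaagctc
Arid5b: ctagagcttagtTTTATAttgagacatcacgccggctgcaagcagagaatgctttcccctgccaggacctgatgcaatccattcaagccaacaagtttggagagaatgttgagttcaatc
A match describes the letters of the window and was not tested as a binding site.

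Mtfr2 and Ugcg had the highest young levels of this group. Mtfr2, a regulator of mitochondrial fission, stood at 22.7 and 29.6 CPM in young, 762 and 445 CPM in aged and 824 and 817 CPM in rapamycin libraries (4.76 ± 0.35 log2 units, edgeR adjusted p = 6.52e-05). Ugcg, which makes glucosylceramide, stood at 22.7 and 20.8 CPM in young, 180 and 260 CPM in aged and 315 and 262 CPM in rapamycin libraries (3.55 ± 0.31, edgeR adjusted p = 0.000165). Both sets of old values lay wholly above the young ones, and rapamycin 1 lay among or above them at 932 CPM for Mtfr2 and 194 CPM for Ugcg.

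Several RNA-handling genes belonged to the same group. Cdc5l, a core splicing factor, stood at 1.80 and 4.86 CPM in young and at 152, 232, 349 and 250 CPM in aged 1, aged 2, rapamycin 2 and rapamycin 3 (log2 fold change 6.12 ± 0.52, edgeR adjusted p = 0.000150). Of the 75-base words in its transcripts, 73.3% occur in no other gene, so its reads may not all be assigned uniquely. Rbm44, a germ-cell RNA-binding protein, ranged from 2.84 to 4.50 CPM in young and 49.5 to 67.7 CPM in old libraries (4.03 ± 0.37, edgeR adjusted p = 0.000190). Rrs1, needed to assemble the large ribosomal subunit, ranged from 0.474 to 0.900 CPM and 23.8 to 37.0 CPM (5.49 ± 0.49, edgeR adjusted p = 0.000165). In rapamycin 1 these stood at 297 CPM for Cdc5l, 159 CPM for Rbm44 and 110 CPM for Rrs1, again above both young libraries.

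The remaining higher genes of this group act outside RNA metabolism. Agbl2, a carboxypeptidase that trims tubulin tails, stood at 2.03 and 2.25 CPM in young, 66.0 and 68.9 CPM in aged and 117 and 119 CPM in rapamycin libraries, a log2 fold change of 5.42 ± 0.45. Pxdn, a peroxidase that cross-links collagen IV, ranged from 0.118 to 0.675 CPM in young and 46.1 to 118 CPM in old libraries (7.69 ± 0.72). Pnp2, a purine nucleoside phosphorylase with 78.7% unique words, ranged from 0.237 to 0.450 and 10.5 to 18.2 CPM (5.32 ± 0.59). The adhesion molecule Chl1 had 1 count in the young libraries together and 562 in the old ones, a 347-fold difference (95% counting interval 62.0 to 13719). Adcy2, an adenylyl cyclase, and Pknox2, a homeodomain factor, had 0 counts in both young libraries and were at least 36.8-fold and 42.4-fold higher. All but Pknox2 held without each library in turn and with rapamycin 1 put back. The group was picked by its gap in these same libraries, which favours holding when 1 is left out. Without young 2, the adjusted p of Pknox2 in edgeR was 0.0587.

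**Figure D3:**
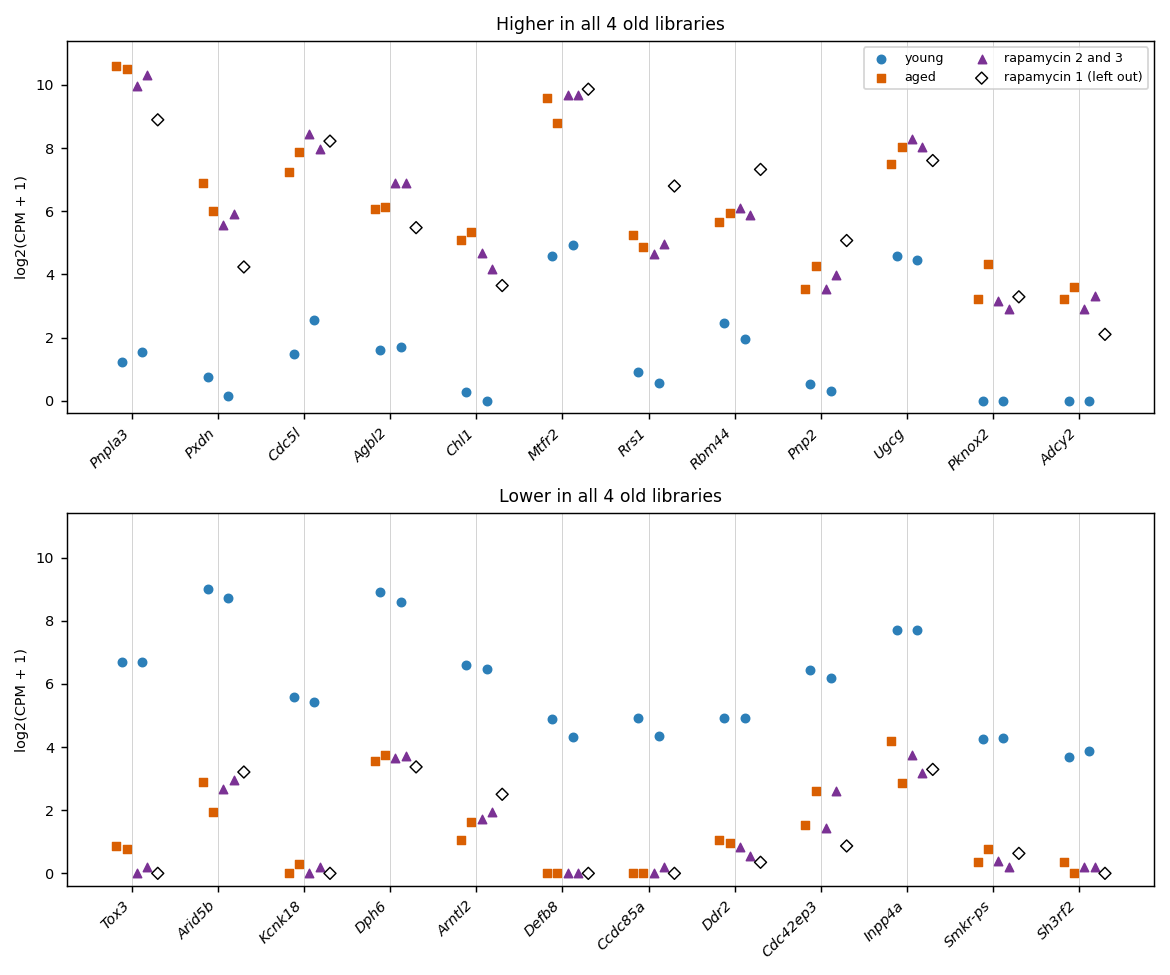
Level in each library as log2(CPM + 1) (y axis) for the 12 called genes per direction with the widest gap between sides (x axis), with young, aged, rapamycin 2 and 3 and the left-out rapamycin 1 marked. In both panels the 4 old libraries lie on one side of both young ones, and rapamycin 1 lies nearer the old than the young ones.

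Among genes lower in old oocytes, Arid5b and Dph6 had the highest young levels of the group with the widest gaps. Arid5b, a DNA-binding transcription coactivator, stood at 507 and 425 CPM in young and at 6.49, 2.80, 5.38 and 6.72 CPM in aged 1, aged 2, rapamycin 2 and rapamycin 3. It fell by 6.43 ± 0.32 on the log2 scale (edgeR adjusted p = 3.37e-06) and lies on chromosome 10 from 68092520 to 68278740. Dph6, which completes the diphthamide modification of elongation factor 2, stood at 483 and 387 CPM in young and 10.8, 12.4, 11.5 and 12.0 CPM in old libraries. Its old values differed by less than 2 CPM, and it fell by 5.21 ± 0.23 (edgeR adjusted p = 1.39e-06). The rapamycin minus aged difference of Dph6 was 0.02 ± 0.27 log2 units.

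Nuclear factors, a channel and signalling proteins made up much of the rest. Tox3, a nuclear protein with an HMG box, stood at 102 CPM in both young libraries and at 0.811, 0.701, 0 and 0.156 CPM in the old ones, 7 counts in all. It fell by 8.11 ± 0.56 (edgeR adjusted p = 3.29e-05). Arntl2, a partner of CLOCK in the circadian clock, stood at 96.1 and 87.1 CPM in young and 1.08 to 2.81 CPM in old libraries, and fell by 5.40 ± 0.34 (edgeR adjusted p = 1.73e-05). Inpp4a, a phosphoinositide phosphatase, stood at 209 and 210 CPM in young and 6.31 to 17.3 CPM in old libraries, and fell by 4.25 ± 0.36. Cdc42ep3, an effector of the GTPase Cdc42, ranged from 72.0 to 86.2 CPM in young and 1.69 to 5.15 CPM in old libraries. The collagen receptor Ddr2 was at 29.3 and 29.4 CPM in young and 0.469 to 1.08 CPM in old libraries, and the long noncoding RNA Smkr-ps at 18.2 and 18.7 and at 0.156 to 0.701 CPM.

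Some lower genes were close to absent from old libraries. The potassium leak channel Kcnk18 had 567 counts in young and 2 in old libraries, 460-fold lower (interval 127 to 3804). Ccdc85a, a coiled-coil protein, had 295 and 1 counts, 478-fold lower (85.2 to 18950), and Sh3rf2, with SH3 and RING domains, 167 and 3 counts, 90.2-fold lower (30.3 to 442). The defensin gene Defb8 had 288 counts in young and 0 in all 4 old libraries, at least 156-fold lower, and was at 0 in rapamycin 1 too. All 12 lower genes of widest gap held without each library in turn and with rapamycin 1 put back. Picking them by their gap in these same libraries favours holding when 1 is left out.

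Over all 24491 genes of the files, 8 had 0 counts in both young and at least 10 in each old library, and 13 had 0 in all old and at least 10 in each young library. Adcy2 and Pknox2 are among the former, with Nox4, an NADPH oxidase that makes hydrogen peroxide, and Slc6a14, an amino acid transporter. Nox4 stood at 14.9, 16.8, 7.38 and 1.56 CPM in aged 1, aged 2, rapamycin 2 and rapamycin 3, at least 38.0-fold higher. Slc6a14 ranged from 2.50 to 6.54 CPM, at least 19.9-fold higher. In rapamycin 1 both stood at 0.275 CPM, near the young libraries. Among the converse genes, the immune receptor Slamf7 was at least 40.0-fold lower, the olfactory receptor Olfr206 at least 47.0-fold and Extl1, a heparan sulfate glycosyltransferase, at least 35.1-fold. The calls of Nox4, Slc6a14, Slamf7, Olfr206 and Extl1 ended without young 1, without young 2 and with rapamycin 1 put back.

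Beside Pnpla3 and Mtfr2, the called genes of highest level included maternal transcripts that changed by smaller folds. Nlrp4f, an oocyte member of the NLRP family, stood at 1477 and 1107 CPM in young and 2433, 3038, 2714 and 2289 CPM in old libraries, higher by 1.02 ± 0.20 log2 units (edgeR adjusted p = 0.0194). Ggct, which breaks down glutathione intermediates, ranged from 505 to 612 CPM in young and 923 to 1514 CPM in old libraries (1.14 ± 0.25), and Fnbp4, which binds formins, from 334 to 345 and 662 to 750 CPM (1.07 ± 0.19). Dppa3, also called Stella, protects maternal DNA methylation in the zygote. It stood at 3576 and 2571 CPM in young and 1308, 1723, 1745 and 1725 CPM in old libraries, and fell by 0.92 ± 0.20 (edgeR adjusted p = 0.0270). In rapamycin 1 Dppa3 was at 3083 CPM, among the young values. Ccdc69 ranged from 4061 to 4120 CPM in young and 1844 to 2476 CPM in old libraries, and the homeodomain gene Meis2 was at 1272 and 1269 CPM in young and at 536 to 734 CPM in old libraries. The calls of Nlrp4f, Ggct, Fnbp4, Dppa3, Ccdc69 and Meis2 ended without young 1, without young 2 and with rapamycin 1 put back. Those of Nlrp4f, Ggct, Dppa3 and Meis2 also ended without aged 2, and those of Ggct, Dppa3 and Meis2 without rapamycin 3.

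The counts for the gene lists that follow are edgeR calls and stand against 3.91% called among all genes tested. DESeq2 called 825 of 11745 genes in all, with more members than edgeR in 25 of 35 lists and the same number in 10. EdgeR with no low-count filter called 1135 of 16869 genes. List counts at an unadjusted p under 0.05 in edgeR stand against 2082 of 10220 genes. The subcortical maternal complex and other maternal-effect genes, which support the first cleavages, had 2 of 25 tested members higher (Nlrp4f and Nlrp4e) and 1 lower (Dppa3), 12.0% in all, with a median log2 fold change of 0.04 against 0.02 over all genes tested and of -0.16 with rapamycin 1 put back. Nlrp4e, with 79.9% unique words, ranged from 136 to 157 CPM in young and 246 to 432 CPM in old libraries. In the Tcl1 and Obox clusters, families of oocyte genes in tandem copies, 1 of 14 members was higher and 2 were lower (21.4% in all). Tcl1b5 ranged from 130 to 139 CPM in young and 296 to 433 CPM in old libraries (1.40 ± 0.25). Oog4 stood at 323 and 267 CPM in young and 86.3 to 104 CPM in old libraries and fell by 1.68 ± 0.21. The homeobox gene Obox2 was at 5006 and 3682 CPM in young and 1472 to 2711 CPM in old libraries, but 47.4% of its words are unique, so its copies may share reads. All these calls ended without young 1, and all but that of Oog4 without young 2. The calls of Nlrp4e and Obox2 ended without rapamycin 3, that of Nlrp4e also without aged 2, and with rapamycin 1 put back none was called in either list.

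Among lists of genes that define the oocyte or hold it at metaphase, 5 had 0 members called by edgeR, where 3.91% of all genes were. These were 19 oocyte identity and zona genes (median -0.02, and -0.19 with rapamycin 1 put back), 27 genes of metaphase arrest and maturation (0.33), 17 cohesin and centromere protection genes (-0.01), 28 deadenylation and decay genes (0.02) and 25 genes of egg-sperm interaction and calcium (0.05). At an unadjusted p under 0.05 edgeR had 2, 6, 4, 3 and 2 members of these lists in that order, against 2082 of 10220 over all genes. DESeq2 called 1 arrest gene and 1 cohesin gene higher and 0 members of the other 3 lists, and edgeR with no low-count filter called 1 oocyte identity gene higher and 1 lower, 2 arrest and 2 decay genes higher, and 2 egg-sperm genes lower. With the aged libraries only, 6 of 27 arrest and maturation genes were called, 5 higher and 1 lower. In that setting 1177 of 9409 genes tested were called. Of 31 spindle checkpoint, kinetochore and Aurora kinase genes edgeR called 1 (3.23%), Aurkc, the meiotic Aurora kinase, while DESeq2, other size factors and a filter of 10 CPM each had 2 lower. Aurkc stood at 818 and 805 CPM in young, 279 and 253 CPM in aged and 91.0 and 342 CPM in rapamycin libraries, and fell by 1.75 ± 0.39 (edgeR adjusted p = 0.0308). Of its words, 56.7% are unique. Of 29 genes of mRNA storage and polyadenylation, 2 (6.90%) were higher, Cpsf2, a subunit of the cleavage and polyadenylation complex (56.1 to 65.3 CPM in young, 120 to 196 CPM in old libraries), and 4932438A13Rik (34.6 to 40.3 and 65.8 to 138 CPM), which encodes a lipid-transfer protein and is not known for polyadenylation. These 3 calls ended without aged 2, young 1 or young 2 and with rapamycin 1 put back, and that of Cpsf2, at 59.6 CPM in rapamycin 1, also without rapamycin 3. The call of Aurkc ended with rapamycin 2 and 3 as the only old libraries. Tdrd5, of the piRNA pathway, was at 79.2 and 102 CPM in young and 43.3 to 50.9 CPM in old libraries, at an edgeR adjusted p of 0.0498, and its call ended without aged 2, rapamycin 2, rapamycin 3, young 1 or young 2, with the aged libraries only and with rapamycin 1 put back.

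Of 27 lipid droplet and fatty acid genes, 2 (7.41%, against 3.91% of all genes) were higher (median 0.32): Pnpla3 and Fasn, the fatty acid synthase. Fasn stood at 2.70 and 6.28 CPM in young, 43.5 and 86.4 CPM in aged and 41.2 and 113 CPM in rapamycin libraries (3.93 ± 0.58, edgeR adjusted p = 0.00456), and 17.0 CPM in rapamycin 1. Of 42 genes of mitochondrial dynamics and import, 2 were higher and 1 lower (7.14% in all, median -0.11). Beside Mtfr2 these were Timm10, an import chaperone, at 2.13 to 2.93 CPM in young, 12.4 and 13.5 CPM in aged and 23.7 and 35.6 CPM in rapamycin libraries (3.10 ± 0.55), and Mtfr1l, a relative of Mtfr2. Mtfr1l stood at 44.1 and 32.2 CPM in young and 7.18 to 12.8 CPM in old libraries and fell by 2.05 ± 0.33, against the direction of Mtfr2. Of 38 glycolysis and citrate cycle genes 1 (2.63%) was called, Got1, the cytosolic aspartate aminotransferase of the malate shuttle, at 79.2 and 53.5 CPM in young, 2.70 and 3.04 CPM in aged and 15.2 and 11.9 CPM in rapamycin libraries. It fell by 2.97 ± 0.57. The rapamycin minus aged difference of Got1 was 2.23 ± 0.40 log2 units (edgeR adjusted p = 0.181). The call of Fasn ended without young 1, those of Timm10, Mtfr1l and Got1 without young 1 or young 2, and all 4 with rapamycin 1 put back. In rapamycin 1 Timm10 was at 1.37 CPM, below the young libraries, and Mtfr1l at 33.0 CPM, between them, and with that library the difference of Mtfr1l was -1.46 ± 0.59.

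The lists of large protein machines had different medians in the arms, and so did other lists. Against young, the antioxidant medians were -0.32 for aged and 0.25 for rapamycin libraries, and those of heat shock proteins -0.39 and 0.10. In the arrest and maturation list the order was the other way (0.49 and 0.18). EdgeR called 0 of 80 cytosolic ribosomal protein genes, where 3.91% of all genes were called, and their median log2 fold change was -0.13. Measured against the same young libraries, their median was -0.67 for aged and 0.19 for rapamycin libraries. The 72 nuclear respiratory chain genes had 0 called in edgeR and medians of -0.32 pooled, -0.67 for aged and -0.11 for rapamycin. The 32 proteasome genes had 0 called in edgeR and medians of -0.35, -0.65 and -0.14. At an unadjusted p under 0.05 edgeR had 6 ribosomal, 5 respiratory and 8 proteasome genes, against 2082 of 10220 over all genes. DESeq2 called 1 ribosomal gene higher, 1 respiratory gene lower and 0 proteasome genes. With no low-count filter edgeR called 1 ribosomal gene higher and 3 lower, 1 respiratory gene lower and 2 proteasome genes lower. Of 68 mitochondrial ribosomal protein genes edgeR called 1 (1.47%), Mrps23, at 75.9 and 81.1 CPM in young and 22.7 to 43.1 CPM in old libraries, which fell by 1.22 ± 0.29. In rapamycin 1 Mrps23 stood at 180 CPM, above both young libraries, and with that library its difference was -0.33 ± 0.75. Its call ended without aged 2, young 1 or young 2, with rapamycin 2 and 3 as the only old libraries and with rapamycin 1 put back. For the ribosomal list the pooled median turned to 0.08 without aged 1, 0.04 without young 1 and 0.36 with rapamycin 1 put back, which left the respiratory and proteasome medians at -0.27 and -0.39.

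The mTOR kinase, the target of rapamycin, drives protein synthesis when amino acids and growth factors are at hand. Of 62 mTOR pathway genes, 1 was lower and 1 higher (3.23% in all, close to the 3.91% of all genes, median 0.08), against 4 higher and 2 lower in DESeq2. Lamtor3, part of the lysosomal anchor of the complex, stood at 768 and 654 CPM in young and 290 to 403 CPM in old libraries and fell by 1.08 ± 0.21. Slc38a9, the lysosomal arginine sensor, ranged from 5.69 to 8.33 CPM in young and 16.8 to 29.2 CPM in old libraries (1.59 ± 0.39, edgeR adjusted p = 0.0483). Mtor itself stood at 27.2 and 30.0 CPM in young, 73.3 and 42.0 CPM in aged and 32.6 and 39.5 CPM in rapamycin libraries (0.71 ± 0.36, edgeR adjusted p = 0.292). Its partner Rptor (-0.19 ± 0.53), its substrate kinase Rps6kb1 (-0.44 ± 0.26) and its target Eif4ebp1 (1.63 ± 0.59, edgeR adjusted p = 0.156) did not pass either. Of 49 translation factors 1 (2.04%) was higher, Eif1ad, with a domain like that of an initiation factor, at 24.5 to 25.0 CPM in young and 61.2 to 105 CPM in old libraries (1.72 ± 0.30), although 15.3% of its exon bases overlap another gene. Of 56 autophagy and lysosome genes 1 (1.79%) was lower, the lysosomal protease Tpp1, at 21.4 to 30.0 CPM in young and 8.64 to 10.3 CPM in old libraries. The calls of Lamtor3, Slc38a9, Eif1ad and Tpp1 ended without young 1 or young 2 and with rapamycin 1 put back, those of Lamtor3, Slc38a9 and Tpp1 also without aged 2, and those of Slc38a9 and Tpp1 without rapamycin 3. Tpp1 was at 27.7 CPM in rapamycin 1, between the young libraries.

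Among stress genes, edgeR called antioxidant genes in both directions and chaperones of the endoplasmic reticulum only downward. Of 34 antioxidant genes, 3 were higher and 1 lower (11.8% in all, against 3.91% of all genes, median 0.06). Gsto2, a glutathione transferase, had 2 counts in young and 191 in old libraries, 58.9-fold higher (interval 16.1 to 490), G6pdx, which supplies NADPH, ranged from 97.0 to 116 and 191 to 338 CPM (1.37 ± 0.28), and the glutaredoxin Glrx, named after its values were seen, from 93.5 to 115 and 188 to 238 CPM (1.06 ± 0.23). Nfe2l2, also called NRF2, the transcription factor that induces many antioxidant genes, stood at 36.2 and 33.3 CPM in young and 7.57, 13.1, 14.3 and 9.68 CPM in old libraries. It fell by 1.63 ± 0.33 (edgeR adjusted p = 0.0204) and was at 40.7 CPM in rapamycin 1, with which the difference was -1.03 ± 0.60. Of 33 chaperones of the endoplasmic reticulum and unfolded protein response genes, 2 (6.06%) were lower (median 0.02). Pdia6, a disulfide isomerase, stood at 516 and 468 CPM in young, 91.1 and 90.2 CPM in aged and 57.4 and 67.9 CPM in rapamycin libraries and fell by 2.68 ± 0.24 (edgeR adjusted p = 0.000176). Hspa5, the main chaperone of that compartment, stood at 207 and 213 CPM in young and 36.2, 83.8, 98.6 and 91.2 CPM in old libraries and fell by 1.43 ± 0.34. The call of Pdia6 held without each library in turn and ended with rapamycin 1 put back. Those of Gsto2, G6pdx, Glrx, Nfe2l2 and Hspa5 ended without young 1 or young 2, those of G6pdx, Glrx, Nfe2l2 and Hspa5 without aged 2, those of Glrx, Nfe2l2 and Hspa5 without rapamycin 3, and all but that of Gsto2 with rapamycin 1 put back.

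Of 83 DNA damage and repair genes, 3 were lower and 0 higher in edgeR (3.61% in all, against 3.91% of all genes, median 0.08). At an unadjusted p under 0.05 there were 15, against 2082 of 10220 over all genes. DESeq2 called 3 higher and 5 lower in that list (825 of 11745 over all genes). EdgeR with no low-count filter called 5 higher and 5 lower (1135 of 16869 over all genes). Dmc1, the meiotic recombinase, ranged from 6.40 to 10.4 CPM in young and 0 to 0.769 CPM in old libraries and fell by 4.23 ± 0.70. The checkpoint clamp subunit Rad1 ranged from 66.9 to 93.7 CPM in young and 35.9 to 44.6 CPM in old libraries. Among 86 splicing factors (3.49% called) 1 was higher, Cdc5l, and 2 lower: Bcas2, its partner in the same complex, at 163 and 168 CPM in young and 58.1 to 78.9 CPM in old libraries, which fell by 1.35 ± 0.23, and Snrpa1 at 117 to 147 and 37.1 to 68.3 CPM. Among 72 ribosome biogenesis genes (4.17% called), Rrs1 and Nol10 (104 CPM in both young, 176 to 263 CPM in old libraries) were higher and Brix1 lower. Of 19 clock genes and paralogues 2 (10.5%) were lower, Arntl2 and Bhlhe41, a repressor of clock genes, at 140 and 120 CPM in young and 39.2 to 52.6 CPM in old libraries, a gene that shares part of its exon bases with another. The calls of Dmc1, Rad1, Bcas2, Snrpa1, Nol10, Brix1 and Bhlhe41 ended without young 1 or young 2 and with rapamycin 1 put back. Those of Rad1, Snrpa1, Nol10 and Brix1 also ended without aged 2, those of Rad1 and Snrpa1 without rapamycin 3, and that of Rad1, at an edgeR adjusted p of 0.0498, without rapamycin 2. The calls of Brix1 and Snrpa1 ended with rapamycin 2 and 3 as the only old libraries, and that of Rad1 with the aged libraries only. Bcas2 was at 237 CPM in rapamycin 1, above both young libraries, and with that library its difference was -0.74 ± 0.58.

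EdgeR called 0 of 52 histone-modifying enzymes, 37 heat shock proteins, 25 kinesins and 23 imprinted genes, where 3.91% of all genes were called, and their medians were -0.01, -0.18, 0.09 and 0.17. At an unadjusted p under 0.05 edgeR had 6, 3, 2 and 6 of them, against 2082 of 10220 over all genes. DESeq2 called 1 histone enzyme higher and 1 lower, 1 heat shock gene higher, 0 kinesins, and 3 imprinted genes higher and 1 lower. In the DNA methylation list, Dppa3 was the 1 gene of 21 that edgeR called (4.76%). Pramef6, of the first-wave embryonic genes, had 0 counts in both young and 53 in the old libraries, at least 10.9-fold higher, with 74.6% unique words. Among the markers of other cells, edgeR called 0 of 10 cumulus and granulosa genes and 0 of 9 theca, stroma and endothelial genes, with 1 of each at an unadjusted p under 0.05. DESeq2, which tested 13 and 12 of them, called 1 cumulus and granulosa gene lower and 1 theca, stroma and endothelial gene higher. Of 6 immune genes edgeR called 1: H2-Aa, a class II antigen-presenting chain, at 1.58 and 2.96 CPM in young and 4.06, 29.0, 18.3 and 31.2 CPM in old libraries (edgeR adjusted p = 0.0460). Both calls ended without rapamycin 3, young 1 or young 2 and with rapamycin 1 put back, that of H2-Aa also without aged 2 and with the aged libraries only. H2-Aa was at 0 in rapamycin 1.

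**Figure D4:**
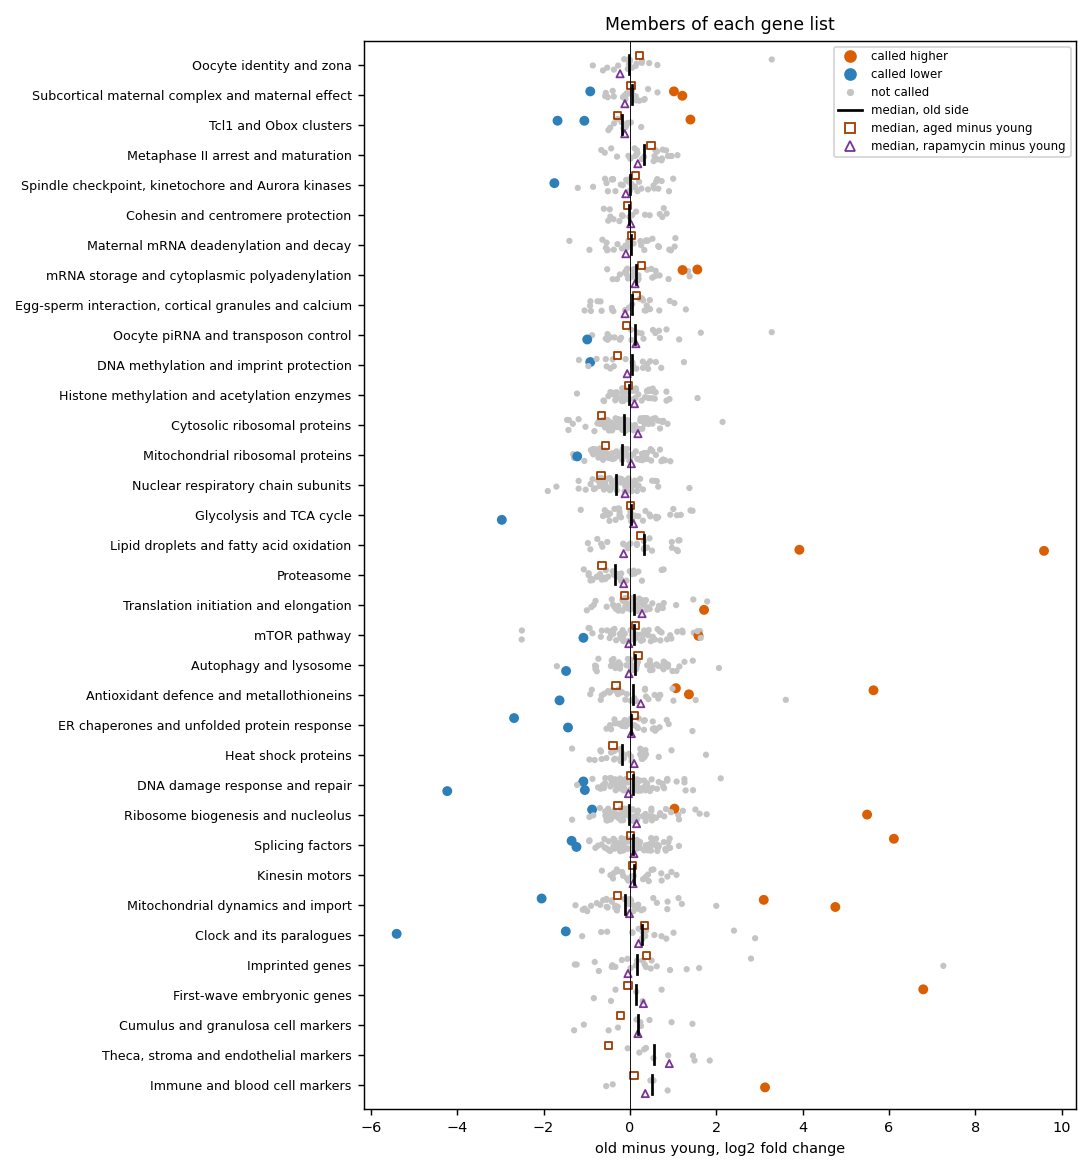
Fitted log2 fold change of old minus young (x axis) for the tested members of each of 35 gene lists (y axis), 1 point per gene, with called genes coloured, the pooled median as a bar and the medians of the untreated and treated arms as open squares and triangles. Called members lie on both sides of 0, and the ribosomal, respiratory and proteasome lists, among others, have squares well left of triangles.

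Some called genes lay next to each other in the genome. Of 378 called genes with a RefSeq position, 76 (20.1%) had a called gene as an adjacent tested gene, against 7.42% of all tested genes with a position, a difference that was not tested. They formed 40 pairs, of which 21 changed the same way and 19 opposite ways. Of these pairs, 9 overlapped or lay under 1 kb apart (22.5%, against 14.6% of all adjacent tested pairs). No source used here says how strand was counted, and reads of overlapping neighbours cannot be told apart. The pairs were chosen after their values were seen.

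The stretches between the starts of 3 divergent pairs are shown because each pair shares so short a space. Capitals mark the bases between the RefSeq starts, and 20 bases of each gene flank them (GRCm38.p6, plus strand). Brix1 and Rad1, both lower, are 80 bases apart at chr15:10485918-10486037. Slf1 and 2210408I21Rik, both lower, are 17 bases apart at chr13:77135494-77135550, and Swt1 and Trmt1l, which changed opposite ways, are 44 bases apart at chr1:151428478-151428561.
Brix1 and Rad1: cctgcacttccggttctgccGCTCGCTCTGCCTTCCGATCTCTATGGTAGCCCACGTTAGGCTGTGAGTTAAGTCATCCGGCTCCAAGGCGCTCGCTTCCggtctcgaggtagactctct
Slf1 and 2210408I21Rik: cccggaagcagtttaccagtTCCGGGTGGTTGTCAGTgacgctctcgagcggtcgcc
Swt1 and Trmt1l: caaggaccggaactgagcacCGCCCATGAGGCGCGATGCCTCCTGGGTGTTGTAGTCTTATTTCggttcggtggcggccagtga
Brix1, a ribosome assembly factor, stood at 1105 and 914 CPM in young and 502 to 620 CPM in old libraries and fell by 0.88 ± 0.19, beside 1.04 ± 0.26 for Rad1. Slf1, which recruits the SMC5/6 complex to DNA damage, ranged from 84.4 to 86.7 CPM in young and 23.0 to 41.9 CPM in old libraries, and 2210408I21Rik from 30.2 to 34.4 and 3.27 to 8.92 CPM. In the third pair, Swt1, an RNA endonuclease, was at 277 and 272 CPM in young and 104 to 174 CPM in old libraries and fell by 1.09 ± 0.25. Trmt1l, a relative of a tRNA methyltransferase, was at 27.9 and 27.2 CPM in young and 58.9 to 86.5 CPM in old libraries, with a log2 fold change of 1.40 ± 0.28. In these 6 libraries 1 gene of that pair was thus higher and the other lower across a gap of 44 bases. In rapamycin 1 Swt1 stood at 13.5 CPM and Trmt1l at 6.87 CPM, both below the young libraries, so the opposite directions were not seen there. The other 4 genes were also below their young levels in rapamycin 1, at 174 CPM for Brix1, 21.2 CPM for Rad1, 25.8 CPM for Slf1 and 0.275 CPM for 2210408I21Rik. All 6 calls ended without young 1 or young 2 and with rapamycin 1 put back, those of Brix1, Rad1, Slf1, Swt1 and Trmt1l also without aged 2, those of Rad1 and Slf1 without rapamycin 3, and that of Rad1 without rapamycin 2.

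Other called pairs lay on the same strand or tail to tail. Fnbp4 and Agbl2, 1663 bases apart on chromosome 2, were both higher, by 1.07 ± 0.19 and 5.42 ± 0.45 log2 units. Arntl2 and Smco2, 16580 bases apart on chromosome 6, were both lower, and Smco2 had 1 count in the old libraries, 63.2-fold lower (interval 10.7 to 2560). Fasn and Ccdc57, 1362 bases apart on chromosome 11, were both higher, with Ccdc57 at 0.900 and 1.30 CPM in young and 6.40 to 8.38 CPM in old libraries. Inpp4a and Coa5, which face each other 6344 bases apart on chromosome 1, changed opposite ways, and Coa5, a cytochrome oxidase assembly factor, stood at 15.3 and 15.5 CPM in young and 42.9 to 73.0 CPM in old libraries. The calls of Fnbp4, Smco2, Ccdc57 and Coa5 ended without young 1 or young 2, that of Fasn without young 1, and all these but that of Smco2 with rapamycin 1 put back.

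The called genes were also looked up in tissue and sequence that the comparison did not use. In the 10 hippocampus libraries, 84.0% of all tested genes exceeded 1 CPM in each library, against 73.8% of the higher and 65.0% of the lower genes. Ccdc85a, at 0 to 0.156 CPM in old oocytes, had a median of 127 CPM in hippocampus, and Adcy2 one of 150 CPM, while Rbm44, Pnp2, Kcnk18 and Defb8 had medians of 0. The longest annotated transcript had a median of 3482 bases over all tested genes, 3637 for the higher and 2956 for the lower ones, with GC contents of 48.4%, 49.0% and 46.6%. The letters TTTTAT or TTTTAAT, as in cytoplasmic polyadenylation elements, occurred on the transcript strand within the last 100 bases in 20.1% of all tested genes with a transcript, 23.4% of the higher and 23.1% of the lower. These shares were not tested. A comparison of promoter motifs between the sets was void, because the promoter table held fewer than 80% of the genes (77.6% of those tested).

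Rapamycin and aged libraries were compared within the old side in a fit with 3 groups. Of 10220 genes 6 (0.0587%) were called, 3 higher (0.0294%) and 3 lower (0.0294%) in rapamycin libraries, and 1561 had an unadjusted p under 0.05. None of the 6 was among the 400, but with 3.91% of all genes tested called, 6 genes are too few to read anything from this. The pooled test also counts distance between the arms as spread, which works against calling such genes. Gmnn, the licensing inhibitor geminin, stood at 68.1 and 82.2 CPM in aged, 304 and 260 CPM in rapamycin and 372 and 355 CPM in young libraries (rapamycin minus aged 1.91 ± 0.23, edgeR adjusted p = 0.0196). Mtus2, a microtubule-binding protein, stood at 25.7 and 38.5, 200 and 303, and 336 and 338 CPM in the same order. For both genes the aged libraries lay below the other 4. Slc14a1, a urea transporter, stood at 27.6 and 50.9 CPM in aged and at 0 in the 2 rapamycin and 2 young libraries, and Kcng2, a potassium channel subunit, at 235 and 88.1 CPM in aged and 1.07 to 2.70 CPM in the other 4. With rapamycin 1 put back, edgeR called 0 genes at the threshold and 603 at an unadjusted p under 0.05, while DESeq2 without that library called 155. The call of Gmnn ended without aged 1, rapamycin 2, young 1 or young 2, and that of Kcng2 without rapamycin 2. The count was 134 without aged 2, 24 without rapamycin 3 and 8 without rapamycin 2.

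Across the reported setting and 19 others, 42 genes were called in all, 18 higher and 24 lower. They include Pnpla3, Mtfr2, Ugcg, Cdc5l, Rbm44, Rrs1, Pxdn, Agbl2, Chl1 and Pnp2 among the higher genes, and the 12 lower genes with the widest gaps. The rest were chosen here after their values were seen. Nlrp4g, annotated as a transcribed pseudogene, stood at 142 and 113 CPM in young and 634, 687, 498 and 492 CPM in old libraries (2.18 ± 0.25, edgeR adjusted p = 0.000935). Itgb1bp1, an integrin-binding protein, stood at 31.3 and 35.3 CPM in young and 230 to 306 CPM in old libraries, with 16.9% of its exon bases shared. Homer2, a scaffold protein of calcium signalling, was at 129 and 109 CPM in young and 7.57 to 14.8 CPM in old libraries and fell by 3.34 ± 0.31. Cast, the calpain inhibitor calpastatin, ranged from 24.8 to 25.8 and 0.781 to 1.63 CPM, Micu3, a regulator of mitochondrial calcium uptake, from 16.3 to 17.3 and 0.701 to 1.23 CPM, and Exoc2, of the exocyst, from 26.7 to 32.4 and 2.00 to 4.06 CPM.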

How the data were processed

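Poly(A)-primed, template-switched and tagmented cDNA of about 10 oocytes per library was sequenced as paired 150-base reads without molecular identifiers, per the labels' protocols. The authors deposited raw counts of reads per gene, 1 table per library. STAR, HTSeq and mm10 are named per the submitters' processing notes, while for versions, annotation and strand the entry is "not given in the sources used here". The 5 summary rows per file that name no gene (unassigned reads, of which those without a unique position alone were 10.0% to 13.5% of the file's total over the 6 libraries) were left out. No label ties the libraries of 1 group to separate animals, so p-values measure the spread between libraries, which may be partly technical. Replicate pairs differed by more than counting noise (chi-square per degree of freedom 18.1 to 27.6).

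The 4 old and 2 young libraries were compared with edgeR 4.0.16 in R 4.3.3 (filterByExpr, TMM scaling, quasi-likelihood F-test on the sides, Benjamini-Hochberg over all genes, threshold 0.05). Errors are standard errors of log2 fold changes unless marked SD. For a side with 0 counts the fold is a bound against 3 counts over that side. Where a side has 1 to 3 counts, the fold carries a 95% interval, for counting error only. The scripts were tested on simulated data. The 12 genes per direction with the widest gap in log2(CPM + 1) among called genes (mean log2 CPM of 2 or more, non-overlapping sides, standard symbol) are named, then the 5 per direction of highest level, up to 3 called members per list, up to 4 per direction at 0 in one side, genes called for rapamycin against aged (all, if 10 or fewer), and Mtor, Rptor, Rps6kb1 and Eif4ebp1. Some genes that this rule names are not reported here. Members and lists were chosen with earlier results of these data known. Alternatives were other scaling, filters, DESeq2 1.42.0, thinning, a replicate block, other groupings and leaving out libraries. Genes were matched by symbol to GENCODE M21 on GRCm38 (97.2% to 1 gene) and to RefSeq for neighbours (96.2%) and promoters (GRCm38.p6). Figures used matplotlib 3.10.9.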

Additional observations from a re-analysis of the deposited data

Results flagged for a closer look

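Of 74 named genes with any spread among the 4 old libraries, 5 had 1 library far from the other 3 by Dixon's ratio at its 95% critical value, and chance alone flags about 1 in 20. Mtfr2 was lower in aged 2 (445 CPM against 762 to 824, ratio 0.837), and Pknox2 higher in aged 2 (18.9 CPM against 6.56 to 8.38, ratio 0.853). Dppa3 was lower in aged 1 (1308 CPM against 1723 to 1745, ratio 0.948), and Cpsf2 higher in aged 1 (196 CPM against 120 to 126, ratio 0.927). Ccdc85a had its only count of the old side in rapamycin 3 (0.156 CPM against 0, ratio 1.0).

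Rapamycin and aged libraries differed for 6 genes in the edgeR test of that difference. Rapamycin minus aged, the log2 fold change was 1.91 for Gmnn, 2.97 for Mtus2 and 4.19 for Sparc, a matrix protein at 0.811 and 0.934 CPM in aged, 18.5 and 14.4 CPM in rapamycin and 7.20 and 5.69 CPM in young libraries. It was -6.42 for Kcng2 and -4.39 for Tktl2, a transketolase relative at 14.6 and 18.7 CPM in aged, 0.769 and 0.781 CPM in rapamycin and 18.2 to 18.4 CPM in young libraries. The fitted value of -10.79 for Slc14a1 depends on a prior count, since both rapamycin libraries are at 0. In rapamycin 1, which the fit does not hold, Tktl2 stood at 16.2 CPM, near the aged libraries, and Sparc at 14.8 CPM, near the other rapamycin libraries. All 6 calls ended with that library put back. Those of Gmnn and Sparc ended without aged 1, rapamycin 2, young 1 or young 2, and those of Kcng2 and Tktl2 without rapamycin 2.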

How the results depend on the processing

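The 400 calls for old against young became 65 with rapamycin 1 put back, 1135 with no low-count filter (53.1% of them higher, against 45.8% as reported), 825 in DESeq2 (57.5% higher), 821 in the fit with 3 groups, 1177 with the aged libraries only (56.8% higher), and 118 against a 2-fold change. Leaving out 1 library gave 64 to 699. Other size factors (406), a filter of 10 CPM (325), a robust fit (417), thinning (389), leaving out Rn45s (403) and rapamycin 2 and 3 only (521) stayed within 1.5 times. The 6 calls for rapamycin against aged became 0, 479 with no filter, 155 in DESeq2, 2 in the 4 old libraries alone, and 5 to 134 without 1 library. Deviations of same-numbered libraries from their group means correlated at r = -0.06 for aged and young, 0.17 for aged and rapamycin, and 0.05 for rapamycin and young. With 2 libraries per group these deviations mirror each other, and whether a number marks a batch was not tested. The submitters' design text mentions 3 experiments without tying a library to one, so same-numbered libraries are treated as sharing only a number. The replicate block gave 283 and 89 calls, and kept 48 of 68 named calls while 20 ended. The pooled value of Sparc, not called as reported, turned to -2.81 and was called with the aged libraries only. Of 68 named genes called, 23 held under every alternative with a value, and none reversed. All 23 were among the 24 genes picked by the widest gap in these same libraries, a choice that favours holding. The causes of these shifts were not tested, apart from the fewer or more libraries and genes each setting holds. With 2 young libraries, and 12 called genes under 2-fold, smaller differences may be missed, and calls resting on 1 young library are the least firm.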
